A study of Mus musculus with 4 samples.

Results

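The comparison described here is day 7 against day 4 of culture with DAPT, across all genes. It rests on 2 of the 4 samples of the series, the one titled 2.5 uM DAPT, day 7 and the one titled 2.5 uM DAPT, day 4, with 1 Illumina bead array each, chosen by their titles because the treatment label reads DAPT for all 4. All 4 samples are primary keratinocytes of neonatal mice on the 129 background, carry a Pou5f1::GFP transgene, in which a fluorescent protein reports on Pou5f1, and had been transduced with reprogramming transcription factors that the labels do not name. They were grown in SFM medium at a temperature below that of the body. The other 2 samples, no DAPT on day 7 and no DAPT on day 4, serve here only as values to set beside those with DAPT. With 1 array a side there is no replicate error, so every value below is a size, with no test and no p-value, and the cultures are not stated to be independent.

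DAPT blocks gamma-secretase, the protease that cuts Notch receptors and frees the part that enters the nucleus. In epidermis, Notch signalling helps basal keratinocytes stop dividing and start the differentiation programme that ends in cornified cells. Basal cells hold to the basement membrane through hemidesmosomes and carry keratins 5 and 14, while cells of the upper layers make cornified envelope proteins. Primary skin cultures may also hold fibroblasts, melanocytes and other cells of the dermis and epidermis, and in such a bulk sample fewer cells of a type and less RNA per cell cannot be told apart.

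Signals are given as normalized log2 intensities, and differences as day 7 minus day 4 on that scale, so that a difference of 1 is 2-fold. An offset of 16 was added before the logarithm, which makes the differences of dim genes smaller than the true ones. A gene entered if its probe had a detection p under 0.01 on at least 1 of the 2 arrays. Mean raw intensity was 416 on day 7 and 365 on day 4, and 53.03% of 25697 probes were detected on day 7 and 49.3% on day 4. As a guide to measurement error, the differences of 2 detected probes of the same gene differed from each other with an SD of 0.37 over 1541 genes. Of the cell type markers, 5 of 5 keratinocyte markers on the array (Krt5, Krt14, Krt15, Trp63 and Cdh1) were detected on both arrays. All 8 fibroblast markers were detected on both arrays as well.

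Of 9860 genes, 303 were at least 2-fold higher on day 7 (3.07%) and 202 at least 2-fold lower (2.05%). The median difference of all genes was -0.03, and the middle 95% of genes lay between -0.95 and 1.07. Among the differing genes 60% were higher on day 7; when arrays were scaled to a common median instead of common quantiles, the share was 76.8% and the median of all genes 0.11. Of the 9860 genes, 846 were detected only on day 7 and 356 only on day 4. For such genes a fold called a bound is also given, written as at least so many fold. Its reference is the dim array's lowest detected signal or the signal measured for the probe there, whichever is higher. If the measured signal is higher, as for Pamr1 below, the bound equals the plain fold difference. A bound allows for no measurement error, so the true fold can be smaller.

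**Figure D1:**
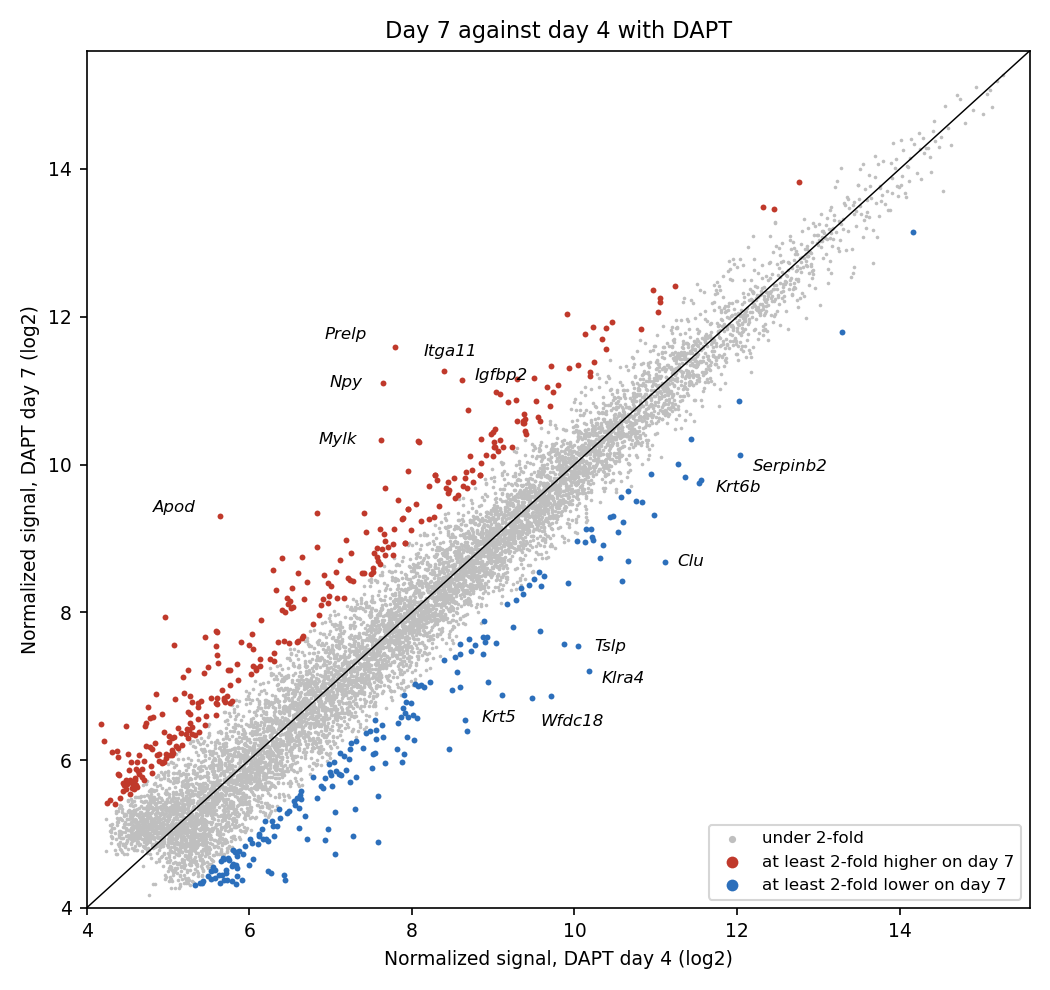
Normalized signal (log2) of 9860 genes on the DAPT day 7 array (vertical axis) against the DAPT day 4 array (horizontal axis), 1 point a gene, with the diagonal of equal signal. The 303 red genes lie at least 2-fold above it and the 202 blue genes at least 2-fold below it; Prelp (11.59 on day 7 and 7.79 on day 4) is farthest above.

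Among genes detected on both arrays, 3 stood furthest above the diagonal. Prelp, a small leucine-rich proteoglycan that anchors collagen near basement membranes, had a signal of 11.59 on day 7 and 7.79 on day 4, a 13.9-fold difference. Apod, a lipid carrier of the lipocalin family, stood at 9.30 on day 7 and 5.63 on day 4 (12.7-fold). Npy, a neuropeptide, stood at 11.11 on day 7 and 7.65 on day 4 (10.97-fold). These are differences of 3.79, 3.67 and 3.46 on the log2 scale.

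Next among genes detected on both arrays came Itga11, the integrin subunit with which fibroblasts hold fibrillar collagen, at 11.27 on day 7 and 8.40 on day 4. Its 3 probes all stood higher on day 7, by 0.86 to 2.87. Mylk, the kinase that switches on smooth muscle myosin, stood at 10.34 on day 7 and 7.61 on day 4, with its 2 probes at 2.72 and 2.89. Igfbp2, a binding protein for insulin-like growth factors, stood at 11.14 on day 7 and 8.62 on day 4. These and the following are the 15 highest of the genes detected on both arrays. Serping1, the C1 inhibitor of complement, was higher by 2.52 and C2, a complement protease, by 2.33. The chemokine genes Cxcl9, Ccl11 and Cxcl10 were higher by 2.48, 2.21 and 2.14. Ptn, a heparin-binding growth factor, was higher by 2.28, Gpx3, a secreted glutathione peroxidase, by 2.24, Car11, a relative of the carbonic anhydrases, by 2.22 and Aard by 2.16.

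Of the genes detected on day 7 and not on day 4, Pamr1, a secreted protein with a peptidase-like domain, was at least 7.86-fold higher (7.94 on day 7 and 4.96 on day 4). Tenm3, a teneurin of the cell surface, was at least 4.10-fold higher, Cpz, a secreted carboxypeptidase, at least 3.88-fold, and Cfb, complement factor B, at least 3.84-fold. Rhox9, a homeobox gene of the reproductive Rhox cluster, was at least 3.57-fold and Ctsa, a lysosomal carboxypeptidase, at least 3.50-fold higher. The 3 probes of Ctsa ranged from 0.08 to 1.98.

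The 15 lowest genes on day 7 are likewise those of the genes detected on both arrays. Klra4, which encodes a lectin-like receptor of the Ly49 family, had a signal of 7.21 on day 7 and 10.18 on day 4, a difference of -2.97. Its close relative Klra16 stood at 6.86 on day 7 and 9.72 on day 4; its second probe differed by -0.52, and probes of this family may not separate its members. Wfdc18, a small secreted WAP-domain protein, stood at 6.83 on day 7 and 9.48 on day 4. Tslp, a cytokine by which epithelia address dendritic cells, stood at 7.54 on day 7 and 10.04 on day 4, a difference of -2.50. Only 1 probe of Tslp was detected, and the mean that includes undetected probes was -1.27. Clu, the extracellular chaperone clusterin, stood at 8.68 on day 7 and 11.11 on day 4.

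Krt5, the type II keratin of basal cells, had a signal of 6.89 on day 7 and 9.11 on day 4, a 4.69-fold difference. Col17a1, the transmembrane collagen of hemidesmosomes, stood at 8.70 on day 7 and 10.66 on day 4, and its 3 probes differed by -1.96 to -1.54. The others of the 15 lowest were Sdr16c5 (a dehydrogenase and reductase of retinoids) and Lce1m (a late cornified envelope protein), both at -2.30, Il13ra2 (a decoy receptor for interleukin 13) at -2.29 and Idi2 (an isopentenyl diphosphate isomerase) at -2.29, with its 3 probes between that and -0.78. D17H6S56E-5 differed by -2.16, Calcb, a calcitonin gene-related peptide, by -2.11, Slc5a9, a sodium-dependent sugar transporter, by -2.07 and Cbr2, a carbonyl reductase, by -1.96. Among genes detected on day 4 and not on day 7, Plekhs1 was at least 6.46-fold lower. Gnat3, a G protein subunit of taste cells, was at least 5.03-fold lower, Spink10 at least 4.05-fold, Sprr2b, a small proline-rich cornified protein, at least 3.72-fold, Sult1d1, a sulfotransferase, at least 3.63-fold and Nr1h4, a bile acid receptor, at least 3.62-fold.

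**Figure D2:**
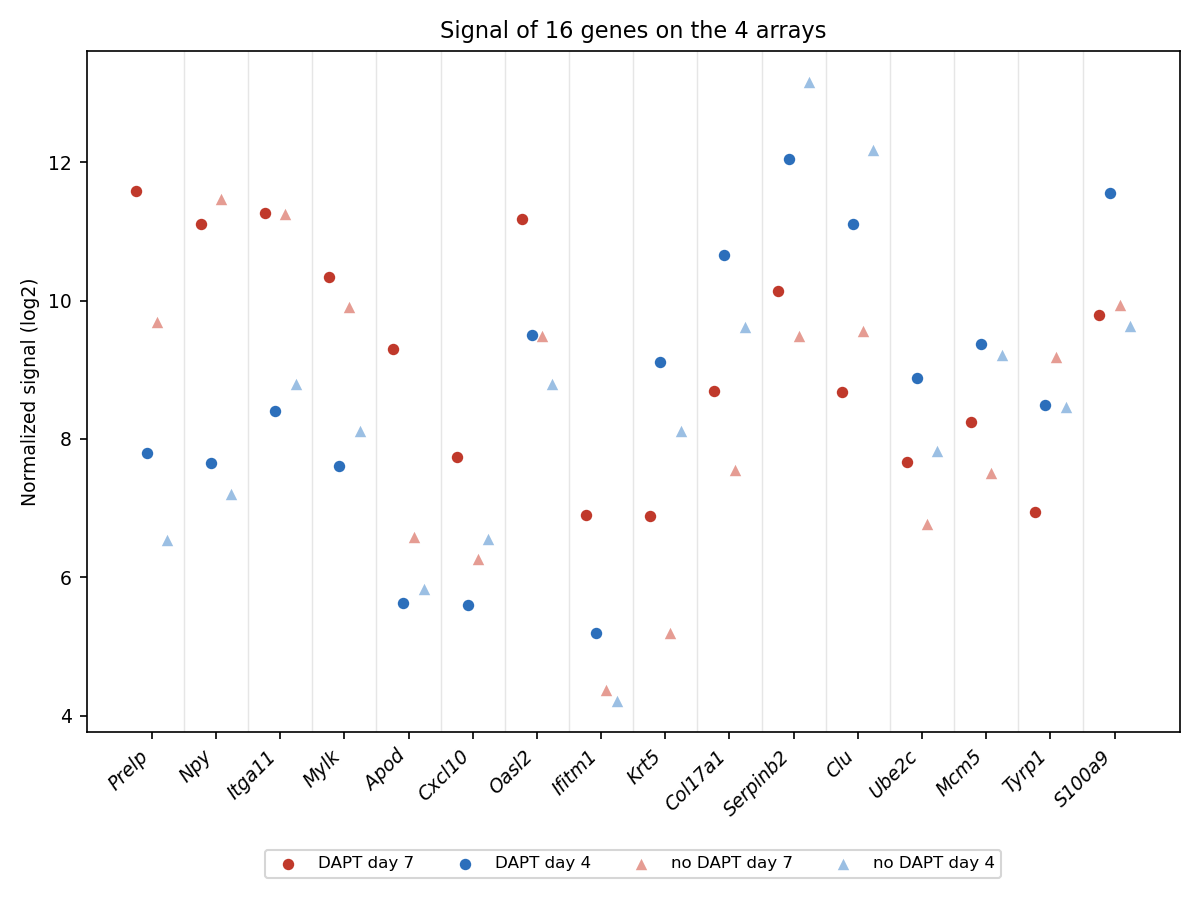
Normalized signal (log2, vertical axis) of 16 genes on each of the 4 arrays; circles are the DAPT arrays and triangles the arrays without DAPT, with day 7 in red tones and day 4 in blue tones, 1 array a symbol. Prelp, Npy, Itga11, Mylk, Apod and Oasl2 are higher on day 7 both with and without DAPT, and all of these but Npy are highest on the DAPT day 7 array. Cxcl10 and Ifitm1 are also highest on that array.

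Gene groups were read through 42 lists, and members are counted only where they passed the detection filter. Counts of members past 2-fold are to be read beside the shares of all genes, 3.07% higher and 2.05% lower. A single member past 2-fold does not set a list apart. Genes of the extracellular matrix stood mostly higher on day 7. Of 9 small leucine-rich proteoglycans and Mgp, 6 were at least 2-fold higher and 0 lower (3.07% and 2.05% of all genes), with a median of 1.40. Beside Prelp these included Ogn, which helps organise collagen fibrils, at 11.86 on day 7 and 10.23 on day 4, Lum, another such protein, at 9.13 on day 7 and 7.60 on day 4, Mgp, an inhibitor of calcification, at 6.65 and 5.24 in the same order, and Podn, at least 2.65-fold higher. Dcn, the most common member in dermis, was higher by 0.81 and 1.18 on its 2 probes.

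Of 20 matrix glycoproteins and elastic fibre genes, 7 stood at least 2-fold higher and 0 lower (list median 0.80), and 19 stood above 0. Spon2, a secreted matrix protein, stood at 10.73 on day 7 and 8.69 on day 4. Some higher members belong to microfibrils, on which elastic fibres form. Of these Mfap4 was higher by 2.01, Mfap2 by 1.49 (3 probes, 1.14 to 2.15) and Mfap5 by 1.39. Eln, elastin itself, was detected on day 7 and not on day 4, and was at least 3.33-fold higher. Of 13 collagen chains 4 were at least 2-fold higher and 0 lower (list median 0.57). Col1a2 stood at 11.33 on day 7 and 9.71 on day 4, and Col1a1, its partner in type I collagen, at 11.04 on day 7 and 9.66 on day 4. Col3a1 and Col16a1 were higher by 1.17 and 1.07.

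Of 17 mesenchymal receptors and transcription factors, 2 were at least 2-fold higher and 0 lower (list median 0.64); these were Itga11 and Zeb2, a repressor of epithelial genes, at 1.06. Vim, the mesenchymal intermediate filament, stood at 11.51 on day 7 and 11.35 on day 4, a difference of 0.16 that is within the spread between probes. Of 14 contractile genes, 3 stood at least 2-fold higher and 0 lower (list median 0.24). Beside Mylk these were Myh11, the smooth muscle myosin heavy chain, at 8.51 on day 7 and 6.92 on day 4, and Lmod1, a leiomodin of smooth muscle, higher by 1.09. Acta2, smooth muscle actin, stood near the top of the range, at 15.11 on day 7 and 14.94 on day 4, and its 4 probes ranged from 0.17 to 1.41. The CArG element, which serum response factor binds, was searched on both strands from 250 bases before to 50 after the RefSeq start (build GRCm38.p6) and stood in these windows of 2 of 11 contractile genes with an entry (18.2%), against 1.67% of the 8003 genes of the comparison with one, and in 0 of the 2 that were at least 2-fold higher and had an entry. Of 15 matrix proteases and inhibitors, Pamr1 and Adamts5, which cuts aggrecan and versican, were at least 2-fold higher and 0 lower. The median of these was 0.60, and -0.04 when undetected members were counted too.

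The fibroblast markers were higher on day 7 alongside these groups. The summed normalized intensity of 8 of 8 of them (Col1a1, Col1a2, Col3a1, Pdgfra, Pdgfrb, Dcn, Lum and Thy1) was 27348 on day 7 and 14241 on day 4. That of the 5 keratinocyte markers was 15728 on day 7 and 27705 on day 4. Most of this sum is Krt14, at 13.71 on day 7 and 14.54 on day 4. Single keratinocyte markers differed from -2.23 for Krt5 to -0.45 for Cdh1. Single fibroblast markers differed unequally, from 0.20 for Pdgfra, at 10.16 on day 7 and 9.97 on day 4, to 1.62 for Col1a2. What part the proportion of cell types has in the matrix genes was not tested.

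Growth factor genes of the TGF-beta and insulin-like growth factor systems were among the higher genes. Of 29 TGF-beta and BMP pathway genes, 5 stood at least 2-fold higher and 0 lower (list median 0.30). These were the ligands Tgfb3, at 9.91 on day 7 and 7.95 on day 4, Tgfb2, at 8.53 and 6.59, Bmp4, at 9.52 and 7.83, and Inhba, a subunit of activins, at 10.79 and 9.70, each with day 7 given before day 4. The fifth was Tgfbi, a TGF-beta-induced matrix protein, higher by 1.65 and 0.83 on its 2 probes. Of 10 genes of the IGF system, 4 were at least 2-fold higher and 0 lower (list median 0.67). They were the ligand Igf2, at 11.85 on day 7 and 10.39 on day 4, and the binding proteins Igfbp2, Igfbp4, at 8.08 on day 7 and 6.54 on day 4, and Igfbp6, at least 2.20-fold higher. Of 20 Wnt pathway genes 2 stood at least 2-fold higher and 1 lower (list median 0.04): the secreted antagonist Sfrp1 was higher by 1.82 and the receptor Fzd2 by 1.46, and the receptor Fzd6 differed by -1.02.

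**Figure D3:**
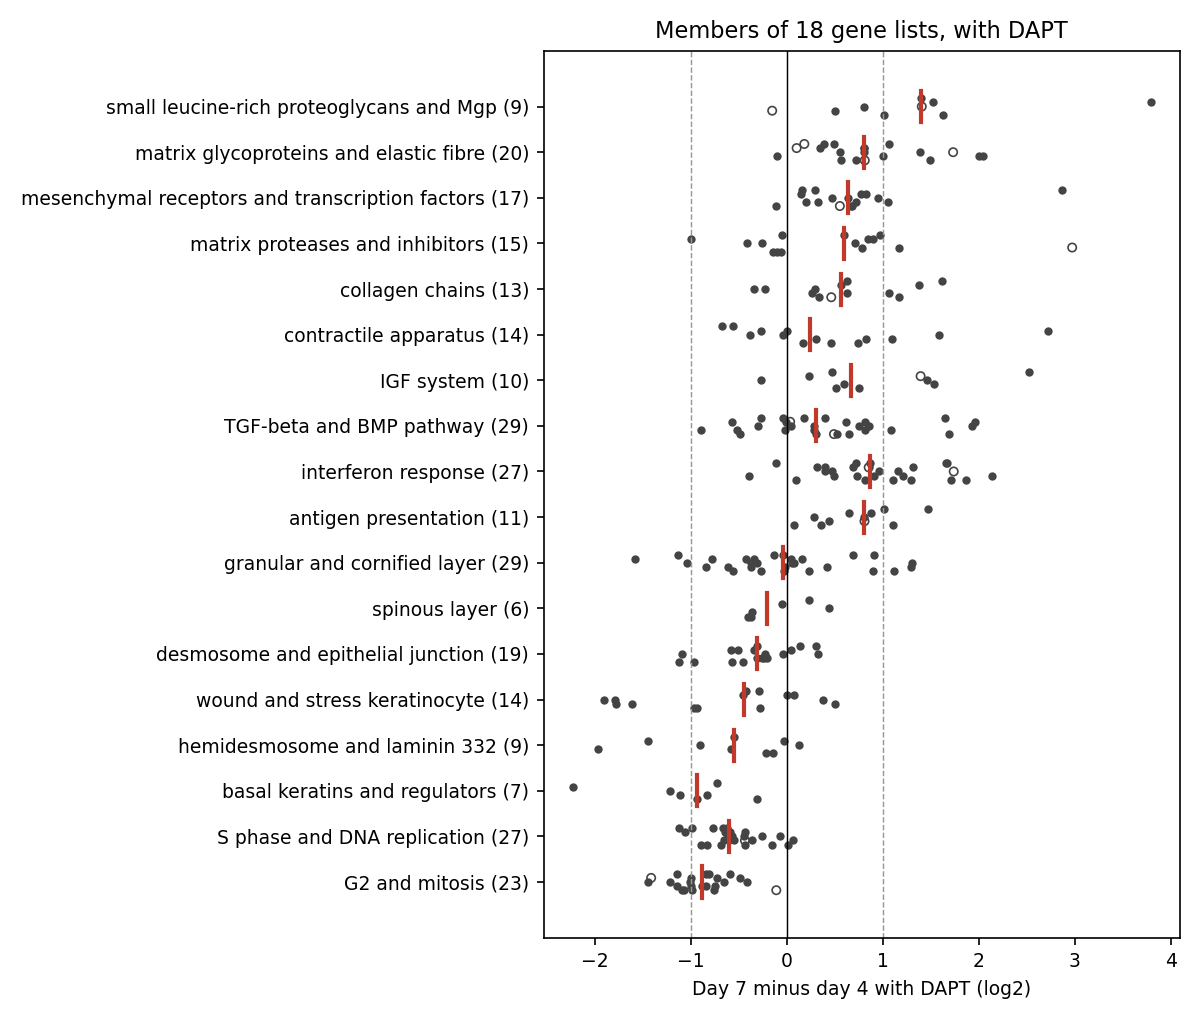
Day 7 minus day 4 with DAPT (log2, horizontal axis) of each member of 18 gene lists that was detected on at least 1 of the 2 arrays, 1 point a gene, with their number in brackets; open points were detected on 1 array only, red bars are list medians and dashed lines mark 2-fold. Matrix, interferon and antigen presentation lists lie mostly right of 0 (median 1.40 for the small leucine-rich proteoglycans and Mgp), and basal keratinocyte and cell cycle lists left of it (median -0.93 for basal keratins and regulators).

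Keratinocyte genes differed by layer. All 7 basal keratins and regulators stood below 0, and 3 were at least 2-fold lower and 0 higher (list median -0.93). Beside Krt5 these were Krt15, a keratin of basal and bulge cells, at 5.85 on day 7 and 7.06 on day 4, and Trp63, the transcription factor that keeps epidermal identity, at 8.17 on day 7 and 9.28 on day 4. Krt14, the partner of Krt5, was among the brightest genes, at 13.71 on day 7 and 14.54 on day 4. Of 9 hemidesmosome and laminin genes, Col17a1 and Itga3, an integrin subunit that binds laminin, were at least 2-fold lower and 0 higher (list median -0.55). Itga3 stood at 9.08 on day 7 and 10.53 on day 4.

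Of 14 wound and stress keratinocyte genes 4 were at least 2-fold lower and 0 higher (list median -0.44). Serpinb2, an inhibitor of plasminogen activators, stood at 10.13 on day 7 and 12.04 on day 4. Krt6b and Krt6a, keratins of injured and hyperproliferative epidermis, differed by -1.79 and -1.61, with all 4 of their probes lower by 1.08 or more. S100a9, a subunit of calprotectin, stood at 9.79 on day 7 and 11.56 on day 4. Of 19 desmosome and junction genes, Pkp1, a desmosomal plaque protein, and Jup, plakoglobin, were at least 2-fold lower and 0 higher (list median -0.30). Cdh1, the epithelial cadherin, stood at 10.94 on day 7 and 11.40 on day 4.

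Genes of the upper layers went both ways. Among 29 genes of the granular and cornified layers, 3 passed 2-fold upward and 3 downward (list median -0.03, and 0.06 when arrays were scaled to a common median). The higher ones were Lce3c and Klk7, a protease of skin shedding, both at 1.30, and Rptn, repetin of the cornified envelope, at 1.12. The lower ones were Sprr1b at -1.58, Casp14, the caspase of cornification, at -1.14 and Ivl, involucrin, at -1.04. Of 6 spinous layer genes 0 passed 2-fold, and the widest was Krtdap at 0.44, just beyond the probe SD of 0.37. The 4 simple epithelial keratins had a median of 0.01, with Krt7 the widest at -0.38. Of 8 hair follicle genes, Krt27, an inner root sheath keratin, stood at 7.54 on day 7 and 5.59 on day 4, and the median was -0.25.

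Cell cycle genes stood mostly lower on day 7. All 23 G2 and mitosis genes stood below 0, from -1.44 to -0.11, and 8 were at least 2-fold lower and 0 higher (list median -0.88). Pbk, a mitotic kinase, stood at 7.43 on day 7 and 8.88 on day 4, Ube2c, the ubiquitin enzyme of the anaphase-promoting complex, at 7.67 and 8.88, and Ccna2, cyclin A, at 6.78 and 7.93, with day 7 before day 4. Cep55, which acts in the last step of cell division, stood at 6.41 on day 7 and 7.55 on day 4, and Bub1b, a spindle checkpoint kinase, was at least 2.42-fold lower. Of 27 S phase and DNA replication genes 25 stood below 0, and 2 were at least 2-fold lower and 0 higher (list median -0.60). These were Mcm5, a subunit of the replicative helicase, at 8.25 on day 7 and 9.37 on day 4, and Rrm2, a ribonucleotide reductase subunit, at 6.25 on day 7 and 7.31 on day 4.

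Promoter windows of both cell cycle lists were searched on both strands for known elements, in the 300 bases from 250 before to 50 after each RefSeq start (build GRCm38.p6). The CHR, an element of genes read in G2 and mitosis, was searched as TTTGAA. It stood in the windows of 17 of 20 G2 and mitosis genes with a promoter entry (85%), and in 14.6% of the 8003 genes of the comparison with one (17.9% of all 32851 windows). E2F sites, searched as TTTCCCGC, TTTCGCGC, TTTGCCGC and TTTGGCGC, stood in those of 7 of 23 S phase genes (30.4%), and in 4.37% of the 8003 (2.26% of all windows). The E2F words can overlap one another on opposite strands, as they do in the Mcm5 window. A match is a run of letters and not a shown binding site. The windows of members at least 2-fold lower on day 7 that hold the element before the start show where it lies, with the match in capitals and each given 5′ to 3′ on the gene's strand. Ube2c lies at chr2:164769849-164769928 (plus strand), Cep55 at chr19:38054961-38055040 (plus strand) and Mcm5 at chr8:75109324-75109403 (plus strand).
Ube2c: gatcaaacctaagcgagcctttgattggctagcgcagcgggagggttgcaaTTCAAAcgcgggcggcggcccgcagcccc
Cep55: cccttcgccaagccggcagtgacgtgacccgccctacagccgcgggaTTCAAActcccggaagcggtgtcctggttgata
Mcm5: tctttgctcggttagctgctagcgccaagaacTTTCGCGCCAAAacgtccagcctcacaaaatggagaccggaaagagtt

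Of the inhibitors of cyclin-dependent kinases, 6 were detected, and 1 was at least 2-fold higher and 1 lower. Cdkn2a, the locus of Ink4a and Arf, stood at 7.61 on day 7 and 6.43 on day 4, and its 2 probes differed by 1.18 and 0.21. Cdkn2c, the inhibitor p18, was at least 2.15-fold lower. Cdkn1a, the inhibitor p21, was bright on both arrays, at 13.00 on day 7 and 12.55 on day 4, and its 3 probes were higher by 0.44 to 1.14. Of 17 p53 targets 1 was at least 2-fold higher and 0 lower, against 3.07% and 2.05% of all genes. The 1 was Sesn2, a stress-responsive regulator of TOR signalling, at 1.03, and the list median was -0.11 (0.06 with median scaling).

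Genes of the interferon response and of antigen presentation stood mostly higher on day 7. Interferon acts through Stat proteins and Irf9, which bind the interferon-stimulated response element (ISRE) of their target genes. Among 27 genes of the interferon response 11 were at least 2-fold higher and 0 lower (list median 0.87), and 25 stood above 0. Cxcl10, a chemokine for T cells, had a signal of 7.74 on day 7 and 5.60 on day 4. Lgals3bp, a secreted galectin ligand, stood at 10.95 on day 7 and 9.08 on day 4. Oasl2, of the oligoadenylate synthetase family, stood at 11.18 on day 7 and 9.51 on day 4, with its 2 probes at 1.67 and 1.23. Ifitm1, a membrane protein that hinders virus entry, stood at 6.90 on day 7 and 5.19 on day 4, and Oas2 was at least 3.34-fold higher.

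All 11 antigen presentation genes stood above 0, and 3 were at least 2-fold higher (list median 0.81). Tap2, a subunit of the peptide transporter, stood at 8.54 on day 7 and 7.07 on day 4, and H2-T23, a non-classical class I molecule, at 10.24 on day 7 and 9.23 on day 4. Psmb10, an immunoproteasome subunit, was higher by 1.11 on the 1 probe and 1.24 on the other. The second probe of H2-T23 was higher by 0.44. Of 4 complement genes, Serping1 and Cfb were at least 2-fold higher. Of 5 immune cell markers on the array, Ptprc, Cd74 and Cd207 were detected on neither array, Cd3e stood at 5.45 on day 7 and 5.61 on day 4, and Lyz2, a macrophage lysozyme, at 7.87 on day 7 and 6.93 on day 4. The 2 probes of Lyz2 were higher by 0.94 and 1.82. The summed normalized intensity of the 5 was 269 on day 7 and 162 on day 4. Their part in the interferon genes was not tested.

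The ISRE, searched on both strands as 2 GAAA words with any 2 bases between them, stood in the promoter windows of 11 of 19 interferon response genes with an entry (57.9%) and of 2 of 9 antigen presentation genes (22.2%). Of the 11 interferon genes at least 2-fold higher, 6 had an entry and 2 of these held it. It stood in those of 3.67% of the 8003 genes of the comparison with an entry, and in 3.44% of all windows. Cxcl10, of the interferon list, and H2-T23, of the antigen presentation list, are at least 2-fold higher, hold it before the start and are shown. The other interferon gene counted, Ifit3 (higher by 1.66), also holds it before the start but falls outside the rules for named genes. The Cxcl10 window lies at chr5:92349058-92349137 (minus strand) and that of H2-T23 at chr17:36032781-36032860 (minus strand), with the match in capitals.
Cxcl10: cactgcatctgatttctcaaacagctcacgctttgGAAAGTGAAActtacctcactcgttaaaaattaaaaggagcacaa
H2-T23: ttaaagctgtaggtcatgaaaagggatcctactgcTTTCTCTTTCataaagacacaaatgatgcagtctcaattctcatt

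The list of inflammatory cytokine and NF-kB genes had no member past 2-fold upward. The chemokine genes Cxcl9, Ccl11 and Cxcl10, higher by 2.48, 2.21 and 2.14, are not in this list. Of its 20 detected genes 0 stood at least 2-fold higher and 2 lower, against 3.07% and 2.05% of all genes (list median -0.19). Csf2, the granulocyte and macrophage growth factor, stood at 5.97 on day 7 and 7.88 on day 4, and Ptgs2, inducible cyclooxygenase, at 9.29 on day 7 and 10.44 on day 4. Of 5 apolipoproteins and lipocalins, Apod was higher and Clu and Lcn2, a siderophore-binding lipocalin at 9.87 on day 7 and 10.94 on day 4, were lower.

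Other cell types were represented by few genes. Among 7 genes of melanocytes, 2 passed 2-fold downward and 1 upward (list median -0.33). Tyrp1, a pigment enzyme, stood at 6.94 on day 7 and 8.50 on day 4, a difference of -1.56. Only 1 probe of Tyrp1 was detected on these arrays, and the mean that includes undetected probes was -0.69. Dct, another, was at least 2.50-fold lower. Mlana, a melanosome protein, differed by -0.90. Ednrb, the endothelin receptor of melanocytes and other cells, stood at 8.31 on day 7 and 6.33 on day 4, in the opposite direction. Tyr and Pmel were detected on neither array, and the summed normalized intensity of the 5 melanocyte markers on the array was 154 on day 7 and 467 on day 4.

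Of 6 Schwann cell and nerve genes 1, Npy, was at least 2-fold higher (list median 0.54); S100b, the Schwann cell marker on the array, was detected on neither. Of 5 endothelial genes Egfl7 differed by -1.36, with its other probe at -0.11, and the median was 0.03. Of the endothelial markers, Tek stood at 7.25 on day 7 and 6.96 on day 4, while Pecam1, Cdh5 and Kdr were not detected. The 3 immune cell genes had a median of 0.09. The 2 adipocyte genes had a median of 0.05, and Adipoq, Fabp4 and Plin1 were not detected on either array. Of 4 skeletal muscle genes, Myog, a myogenic factor, was at least 2.43-fold lower (list median -0.24), while Myod1 and Ckm were not detected. Cnn1 and Rgs5, markers of smooth muscle and pericytes, were not detected, though Myh11, Des, Mcam and Acta2 were.

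DAPT was present on both days in the Notch values that follow. Of 8 Notch targets 3 were detected, with a median of 0.24 and 0 past 2-fold. Hes1, a repressor that Notch induces, stood at 7.72 on day 7 and 7.40 on day 4, within the probe SD. Nrarp, a feedback inhibitor of Notch, stood at 7.49 on day 7 and 8.11 on day 4, a difference of -0.61. Hey1 stood at 4.93 on day 7 and 4.68 on day 4, where it was not detected. Of 18 Notch pathway components 2 were at least 2-fold higher and 0 lower (list median 0.05); these were Aph1a, a subunit of gamma-secretase, at 1.11 and Maml2, a coactivator of Notch, at 1.01.

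Among the reprogramming factors, both arrays detected Klf4, at 8.74 on day 7 and 8.56 on day 4. Sox2 was detected on day 4 only and was at least 1.82-fold lower on day 7, and Myc likewise at least 1.54-fold lower. Pou5f1 was called detected on day 7 only, yet its signal was 4.90 there and 5.10 on day 4, so no direction can be given. Whether these probes read the introduced factors was not analysed here. Of 9 detected pluripotency genes of 22 on the array, 1 was at least 2-fold higher and 0 lower; Dppa5a stood at 6.42 on day 7 and 5.23 on day 4, with its second probe at 1.98. The median of the 9 was 0.64, and -0.02 when undetected members were counted too.

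Stress and metabolic lists had medians from -0.23 to 0.36. Of 21 antioxidant and metallothionein genes 5 stood at least 2-fold higher and 0 lower (list median 0.29): Gpx3, the glutathione transferases Gstm1 and Gstm2 at 1.58 and 1.15, the secreted superoxide dismutase Sod3 at 1.10 and the quinone reductase Nqo1 at 1.02. Of 19 lysosomal genes 1, Ctsa, whose 3 probes ranged from 0.08 to 1.98, was at least 2-fold higher (list median 0.36). Of all genes 3.07% were at least 2-fold higher. Of 14 genes of the unfolded protein and amino acid stress response 1 was, Atf4, a transcription factor of that response, at 1.03, with a median of 0.13. Of 18 glycolysis and hypoxia genes 1 was, the collagen prolyl hydroxylase subunit P4ha1 at 1.01, with a median of -0.02 (0.11 with median scaling). The 11 chaperone and cold shock genes had a median of -0.23 and the 17 sterol and fatty acid synthesis genes one of -0.16, with 0 past 2-fold in either. With median scaling the sterol median was 0.0014. The widest members were Dnaja1 at -0.56 and Lss at -0.87.

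Day 7 was also set beside day 4 without DAPT, on 2 other arrays that share none with the comparison above. There 740 of 9879 genes were at least 2-fold higher on day 7 (7.49%) and 650 lower (6.58%). That pair also carried more disagreement between probes of the same gene, with an SD of 0.77 against the 0.37 with DAPT. The SD was 0.55 to 0.77 in the 3 pairs of arrays that include no DAPT day 4, and 0.34 to 0.44 in the 3 others, so the array of no DAPT on day 4 stood apart from the rest. Since each value has 1 array, the difference between the comparisons could not be tested.

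Of 9380 genes in both comparisons, 294 were at least 2-fold higher on day 7 with DAPT. Of these 128 were also at least 2-fold higher without DAPT, which is 43.5% of the 294 and 17.5% of the 732 higher without DAPT. Of the 183 lower with DAPT, 61 were also lower without it, 33.3% of the 183 and 9.55% of 639. Opposite directions past 2-fold were found for 22 of the 294 genes higher with DAPT (7.48%) and 2 of the 183 lower with DAPT (1.09%). Of all genes detected without DAPT, 6.58% were at least 2-fold lower and 7.49% higher. Across the 9380 genes, which are not independent of each other, the differences correlated with a Pearson r of 0.22, and Spearman's rho was 0.14.

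The matrix genes had medians above 0 in both. The 9 small leucine-rich proteoglycans and Mgp had a median of 1.40 with DAPT, and the 10 detected without DAPT one of 1.03. Of the 9 genes in both comparisons, 3 had the larger difference with DAPT and 6 the smaller. The difference with DAPT minus that without had a median of -0.06 over these 9. Prelp, 1 of the 3, was higher by 3.79 with DAPT and by 3.15 without. The G2 and mitosis median was -0.88 with DAPT and -1.22 without, with 16 of 22 genes less far down with DAPT. The S phase median was -0.60 with DAPT and -0.80 without. Basal keratins and regulators had medians of -0.93 with DAPT and -0.71 without, and 6 of 7 stood lower or level with DAPT, the exception being Krt5, at -2.23 with DAPT and -2.92 without.

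The interferon and antigen presentation lists had the larger medians with DAPT. The interferon median was 0.87 with DAPT (27 genes) and 0.13 without (26), and 20 of 26 genes had the larger difference with DAPT. The difference with DAPT minus that without had a median of 0.79 over the 26. Cxcl10 stood at 7.74 on day 7 and 5.60 on day 4 with DAPT, and at 6.27 on day 7 and 6.56 on day 4 without DAPT. Ifitm1 was detected on both DAPT arrays and on neither array without DAPT. The antigen presentation median was 0.81 with DAPT and -0.04 without, with 9 of 11 genes larger with DAPT. Apod differed by 3.67 with DAPT and by 0.76 without DAPT (6.59 on day 7 and 5.83 on day 4).

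Melanocyte genes had a median of -0.33 with DAPT and 0.67 without. Tyrp1 differed by -1.56 with DAPT and 0.73 without, and 6 of 6 melanocyte genes in both comparisons were lower in the one with DAPT. Mgp was higher by 1.40 with DAPT and by 3.11 without. S100a9 differed by -1.78 with DAPT and by 0.30 without, and Wfdc18 by -2.64 with DAPT and 0.16 without. Of 10 genes of the IGF system 7 had the larger difference with DAPT.

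**Figure D4:**
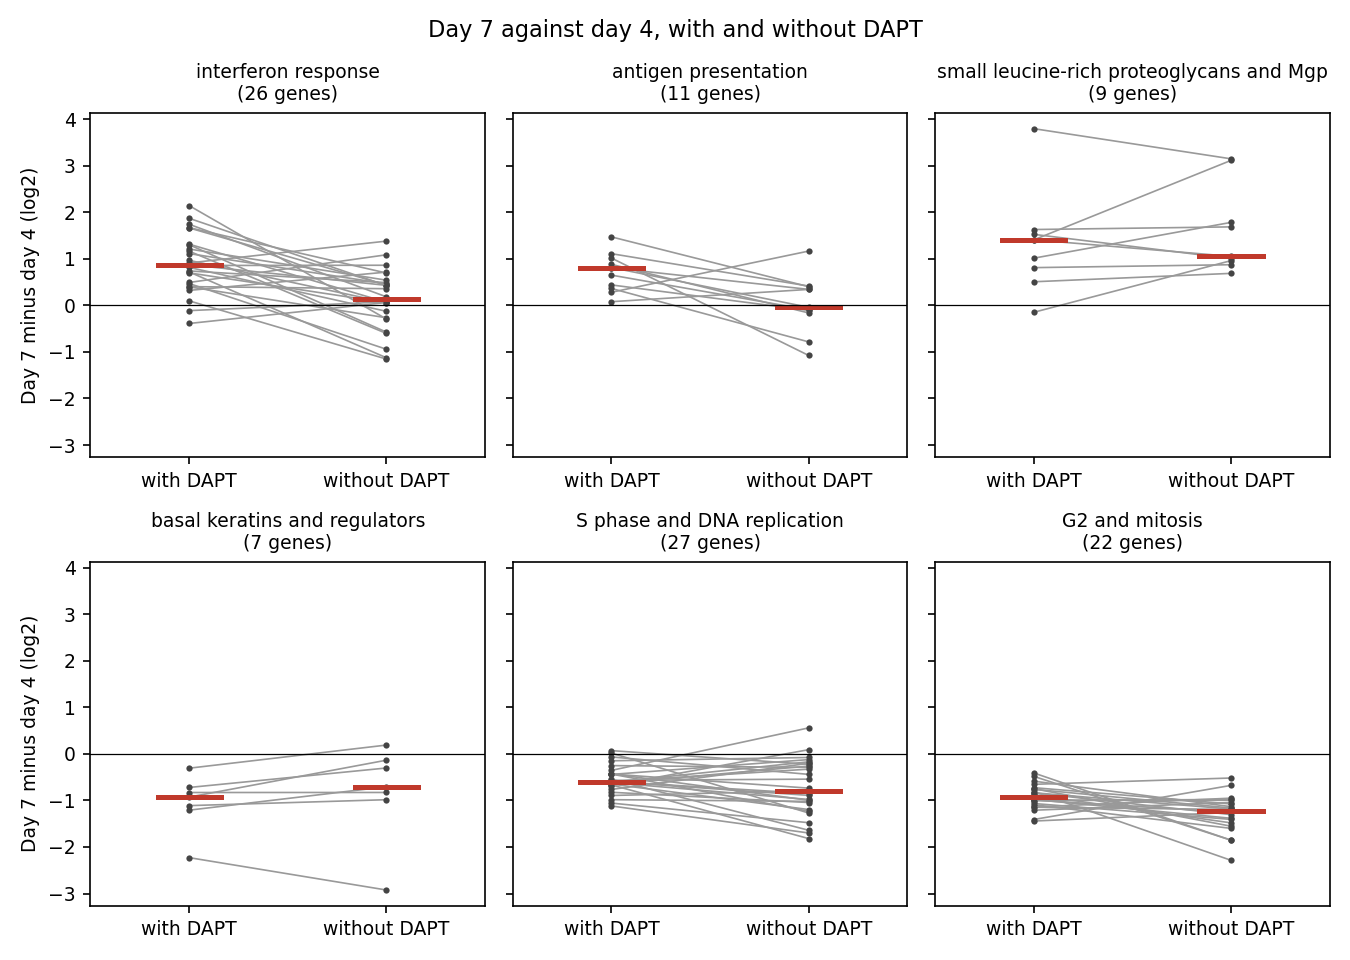
Day 7 minus day 4 (log2, vertical axis) with DAPT and without DAPT for the members of 6 gene lists detected in both comparisons, 1 line a gene, with red bars at the medians of these genes. Most interferon and antigen presentation genes lie higher with DAPT, while most S phase and all G2 and mitosis genes lie below 0 in both. List medians over all detected members were 0.87 with DAPT (27 interferon genes) and 0.13 without (26). For antigen presentation they were 0.81 and -0.04. Ifitm1, detected only with DAPT, counts in the 0.87 but is not drawn.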

How the data were processed

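Total RNA of 4 samples was measured on 1 Illumina bead array each. Probe intensity on a linear scale was deposited without normalization, per the file headers, with a detection p-value beside it in the authors' deposited table; background had been subtracted before, as seen from 5177 to 5847 probes below 0 on each array. A second table holds the authors' normalized intensity (medians 24.7 to 26.0; method not given in the sources used here). The submitters' processing notes name BeadStudio. Here neqc (limma 3.58.1 in R 4.3.3) took the non-normalized values, corrected background, added 16, normalized the 4 arrays by quantiles and took log2. Of 25697 probes, 23978 had 1 gene symbol, 0 several and 1719 none, and 23962 were found in RefSeq's table (GRCm38.p6), which changed 0 symbols. Each of 16593 genes, 4777 of them with several probes, is read from the probe of highest mean. Counts and figures used matplotlib 3.10.9, numpy 2.4.6 and pandas 2.3.3 in Python 3.11.15; the steps were tested on simulated data. The number of arrays limits the precision. Of 745 list genes 674 matched; the comparison and the 42 lists were chosen with earlier results of these data known. Named genes are the 15 highest and 15 lowest detected on both arrays with probes of 1 direction, the 6 largest bounds each way, up to 5 members each way per list, fixed markers, and the 8 each way of opposite direction without DAPT.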

Additional observations from a re-analysis of the deposited data

Results flagged for a closer look

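Of the genes at least 2-fold different between day 7 and day 4 with DAPT, 24 differed at least 2-fold in the opposite direction without DAPT, and 13 of these are named here. Of the 24, 22 were higher with DAPT (7.48% of the genes higher with DAPT) and 2 lower (1.09% of those lower). Without DAPT, 6.58% of all genes were at least 2-fold lower and 7.49% higher. With 1 array a group the difference between the comparisons was not tested. In the 11 named genes that were higher on day 7 with DAPT, the array of no DAPT on day 4 had the highest signal of the 4. Genes higher with DAPT and lower without it can be highest only on that array or on DAPT day 7. Most of the 11 were also named for the largest gap between the comparisons, so this count follows in part from the choice. Pairs with the array of no DAPT on day 4 had the wider spread between probes (SD 0.55 to 0.77). Its part in these differences was not tested. Syngr2, a synaptogyrin of vesicles, differed by 1.45 with DAPT and by -2.50 without DAPT, 3.96 apart. Rab1b, a trafficking GTPase, differed by 1.26 with DAPT and -2.46 without, 3.73 apart, but its 3 probes ranged from -0.54 to 1.26 with DAPT and from -2.46 to 0.14 without. Ccm2, a scaffold of endothelial junctions, differed by 1.06 with DAPT and -2.51 without, 3.57 apart. Ctsa differed by 1.98 with DAPT and -1.53 without, 3.51 apart, but its 3 probes ranged from 0.08 to 1.98 with DAPT and from -1.53 to 0.15 without. Tsc22d1, a transcription regulator, stood 3.22 apart, Car2, a carbonic anhydrase, 3.20, Atf4 3.19, Gm8909 2.97, Aph1a 2.86, Sesn2 2.84 and H2-T23 2.09. The second probe of Car2 went the other way, at -0.18 with DAPT and 1.79 without, and that of H2-T23 differed by 0.44 with DAPT and 0.05 without. The 2 named genes lower on day 7 with DAPT were Spire2, an actin nucleator, at -1.05 with DAPT and 1.36 without DAPT (-2.42 apart), and Lce1l, of the late cornified envelope, at -1.13 with DAPT and 1.05 without DAPT (-2.18 apart).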

How the results depend on the processing

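The main counts were 303 genes higher and 202 lower on day 7. Median scaling gave 427 and 129, the authors' normalized values 419 and 326, an offset of 50 gave 162 and 87, and a threshold of 1.5-fold 1013 and 929. The other planned settings (no background correction, detection on both arrays, no detection filter, mean over probes, and the 2 DAPT arrays normalized alone) stayed within 1.5 times of both, as did bounds in place of differences, chosen after seeing the data (293 and 193). Of 42 list medians 29 kept their sign in each setting. With median scaling those of p53 targets (0.0615), the granular and cornified layer (0.0637), sterol synthesis (0.0014) and glycolysis (0.114) turned positive. With detection on both arrays the Wnt (-0.0670), Notch target (-0.149), endothelial (-0.0403) and adipocyte (-0.268) medians turned negative and that of reprogramming factors positive (0.185). With no detection filter those of matrix proteases (-0.0431), Wnt (-0.0451), pluripotency (-0.0235) and immune cells (-0.0180) turned negative and skeletal muscle positive (0.0460). Adipocyte genes stood at -0.0418 with an offset of 50 and -0.0923 with the mean over probes, where glycolysis stood at 0.00677. The cause was not tested. Of 130 named genes past 2-fold, 0 changed direction in these settings. No paired analysis was possible because each group holds 1 array. Low signal over background limits the dim genes, whose bounds are given.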

Other observations

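Of 1719 probes with no gene symbol in the annotation used here, 839 were detected on at least 1 of the 2 DAPT arrays, and 25 were at least 2-fold higher and 28 at least 2-fold lower on day 7, with differences from -2.66 to 1.59.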
